A study of Mus musculus with 48 samples.

Results

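Ccl5 encodes the secreted chemokine CCL5, also called RANTES, and was described here in every library of the series. It is 1 of the 49568 genes of the deposited count table. The gene was chosen because its level was higher with the SE than with the LE peptide when IFN-γ was present, in the libraries named with a letter. That difference is therefore given as a description without a test, together with every other Ccl5 contrast that uses those libraries.

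RAW264.7 cells, a mouse macrophage line transformed by Abelson leukaemia virus, were exposed for 72 h, with the medium renewed at 48 h, to PBS, to IFN-γ at 5 ng/ml, to 1 of 3 synthetic epitope peptides at 100 µg/ml, or to a peptide together with IFN-γ. The peptides are 15 residues long and copy residues 65 to 79 of the human HLA-DRβ chain. LE stands for the lupus-risk allele DRB1*03:01, SE for the arthritis-risk allele DRB1*04:01 and PE for protective alleles such as DRB1*04:02. This made 8 groups of 6 mRNA libraries, 48 in all, from a single established mouse line. In each group replicates 1 to 3 were named with letters and replicates 4 to 6 with "HLA", and these 2 sets of 24 libraries are referred to as letter-labelled and HLA-labelled. A figure legend of the study speaks of biological replicates from separate experiments, but the labels do not say which cultures were separate, so the p-values measure the spread between these libraries.

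The labels of the 2 series did not hold equally. Over 12 known target genes of IFN-γ, such as Gbp2, Gbp5 and Cxcl9, the mean of log2(CPM + 1), where CPM is the count per 1000000 counts of the library, was 2.20 to 2.46 in letter-labelled libraries without IFN-γ and 5.90 to 6.70 in those with it, so all 24 went with their label. Among HLA-labelled libraries 12 of 24 were against theirs. The libraries labelled LE and PE had target levels of 6.71 to 6.91, and those labelled IFNy and SE+IFNy had 2.35 to 2.53. In the deposited table the HLA-labelled columns also stand beside letter-labelled columns of another group, in 24 of 24 cases. Those beside letter-labelled columns with IFN-γ had target levels of 6.05 to 6.91, and those beside columns without it had 2.35 to 2.70. Whether the HLA labels belong to these columns is not known. For this reason the series were analysed separately, the letter-labelled one first, and each HLA-labelled value below is that of libraries labelled so. Total counts ran from 16.5 M to 26.9 M (M for mega) and, for the HLA-labelled libraries, from 14.1 M to 42.6 M.

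CCL5 draws T cells, natural killer cells, monocytes and eosinophils to sites of inflammation. It binds G protein-coupled receptors, among them CCR1 and CCR3, and is held on cell surfaces by glycosaminoglycans, which syndecans and CD44 carry. In macrophages the gene is induced by inflammatory stimuli through NF-κB and interferon regulatory factors at its promoter, and IFN-γ is one of its inducers. Activated T cells make the same chemokine, late after their activation.

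In the mouse build GRCm38, Ccl5 (ENSMUSG00000035042.2) occupies chromosome 11 from 83525778 to 83530518 on the minus strand, a span of 4741 bases, by GENCODE M21. Its coding transcript has 3 exons and 532 bases, of which 273 are coding without the stop codon. Exon 1 runs from 83530386 to 83530518 and holds the 5′ UTR (83530462 to 83530518), exon 2 runs from 83529156 to 83529267, and exon 3 runs from 83525778 to 83526064 and holds the 3′ UTR (83525778 to 83525979). No other gene overlaps it. Within 50000 bases lie 4 other genes, of which the chemokine gene Ccl9 and Taf15, a gene for an RNA-binding protein, averaged 311 and 216 CPM in the letter-labelled libraries, while Heatr9 did not exceed 0.175 CPM and the small nuclear RNA gene Gm23247 had 0 counts there.

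All 48 libraries had Ccl5 reads. Letter-labelled libraries had 30 to 2190 counts of the gene, and HLA-labelled libraries had 4 to 628. For the shallowest letter-labelled value, 30 counts, the exact 95% Poisson interval is 20.2 to 42.8 counts, which covers counting error only.

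Without IFN-γ the letter-labelled libraries held little Ccl5 mRNA. PBS replicates 1 to 3 had 1.27, 1.63 and 1.69 CPM. With LE alone the values were 1.89, 2.61 and 2.90 CPM. SE alone gave 2.98, 2.93 and 4.78 CPM, and PE alone gave 1.87, 2.29 and 3.33 CPM. Every library with a peptide was above every PBS library, the SE libraries were above the LE libraries, and the PE libraries overlapped with both.

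With IFN-γ alone Ccl5 reached 8.03, 7.61 and 8.87 CPM, above all 12 libraries without IFN-γ. The libraries with PE and IFN-γ had 14.5, 15.0 and 14.6 CPM. LE with IFN-γ gave 31.9, 32.2 and 30.4 CPM. The highest levels of the series were 89.7, 79.3 and 74.6 CPM with SE and IFN-γ. None of these 4 groups overlapped with another, and their coefficients of variation, 2.03% to 9.52%, were smaller than the 15.0% to 30.2% of the groups without IFN-γ.

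**Figure D1:**
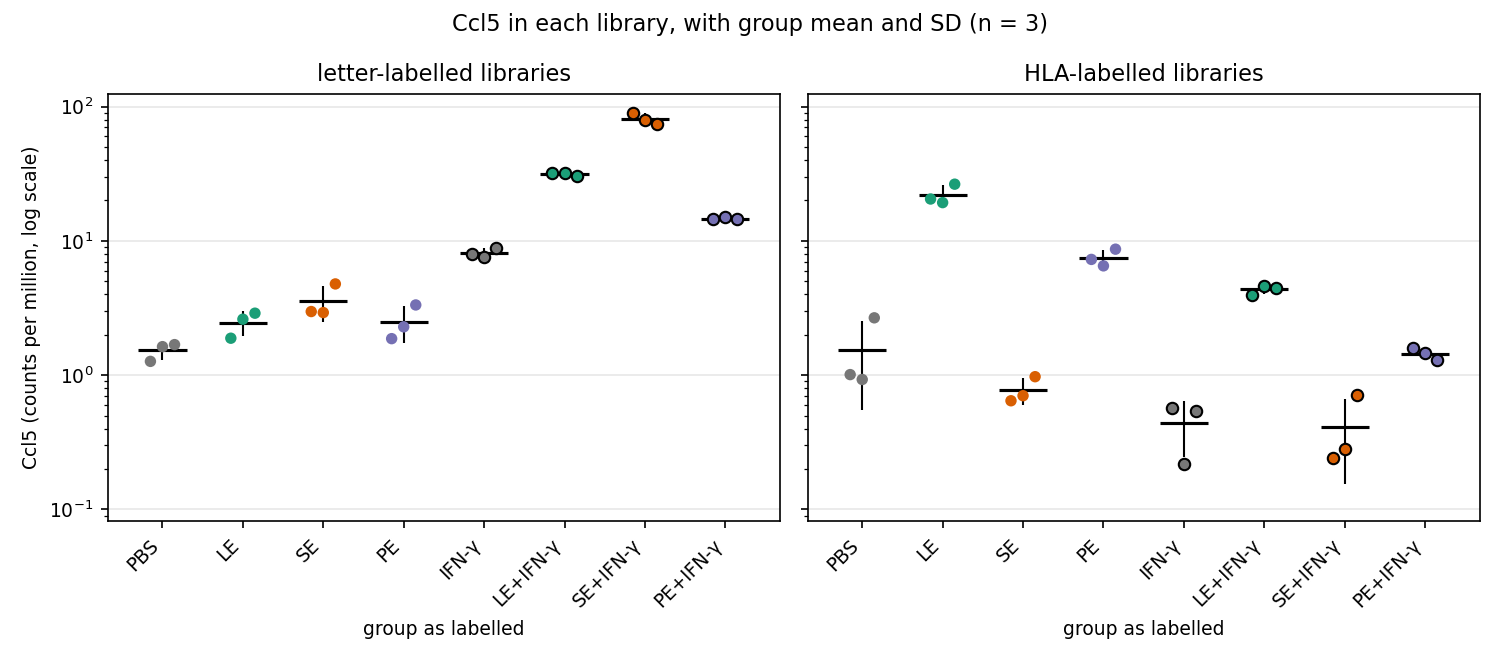
Ccl5 in CPM on a log axis (vertical) for each of the 8 groups as labelled (horizontal), with the letter-labelled libraries at left and the HLA-labelled at right; points are libraries, outlined where the label includes IFN-γ, horizontal lines are group means and vertical lines the SD (n = 3). Letter-labelled values rise from 1.53 CPM with PBS to 81.2 CPM with SE and IFN-γ, while among the HLA-labelled libraries those labelled LE are highest, at 22.1 CPM.

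As group means, the letter-labelled order was SE with IFN-γ (81.2 ± 7.73 CPM, SD, n = 3, as for all groups), LE with IFN-γ (31.5 ± 0.952), PE with IFN-γ (14.7 ± 0.299), IFN-γ (8.17 ± 0.642), SE (3.56 ± 1.06), PE (2.50 ± 0.753), LE (2.46 ± 0.521) and PBS (1.53 ± 0.229). Of the 7 pairs of neighbours in this order, SE against PE and PE against LE overlapped and differed by less than the sum of their SDs. The other neighbours did not overlap. The highest mean was 53.1 times the lowest, and the SE mean with IFN-γ was 2.58 times that of LE with IFN-γ. These are total RNA levels of a culture, in which more expressing cells and more RNA per cell cannot be told apart.

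The response to IFN-γ itself was asked first. Ccl5 rose by 2.43 on the log2 scale (standard error 0.195, 95% interval 2.01 to 2.86, edgeR adjusted p 2.405e-06), or 5.40-fold. Among 12242 genes tested, 9.79% were called as higher, which means an adjusted p under 0.05 and a fold over 1.5, and Ccl5 was in place 188 by fold among those 1199.

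Peptide exposure without IFN-γ was set against PBS, with the 4 groups without IFN-γ fitted together. SE raised Ccl5 by 1.30 on the log2 scale (standard error 0.290, interval 0.678 to 1.92, edgeR adjusted p 0.014), in place 7 by fold among the 84 higher genes, which were 0.676% of 12420. This call was lost without replicate 3, the highest SE library (1.09, adjusted p 0.08398), and without replicate 1 (1.29, adjusted p 0.185). For PE the change was 0.78 (standard error 0.299, interval 0.142 to 1.42, adjusted p 0.07696), with 0.652% of genes called as higher. With LE it was 0.73 (standard error 0.298, interval 0.0948 to 1.37, adjusted p 0.2741), with 0.0242% called. These comparisons share the PBS libraries. The PE and LE values did not pass the test, although each library lay above the PBS range.

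Between peptides without IFN-γ, Ccl5 was 0.57 higher on the log2 scale with SE than with LE (standard error 0.278, interval -0.0274 to 1.16, edgeR adjusted p 0.8603) and 0.52 higher with SE than with PE (standard error 0.279, interval -0.0801 to 1.11, adjusted p 0.9178). Neither of these 2 contrasts passed. Over all genes 0 were called between SE and LE (687 had an unadjusted p under 0.05) and 0.0322% were called as higher between SE and PE.

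In the study's Model A, each epitope with IFN-γ is set against IFN-γ alone, so that its comparisons share the libraries with IFN-γ alone. The study named Ccl5 among lupus-associated genes raised by LE in this model, from 6 biological replicates. The values here rest on the letter-labelled libraries, 3 per group. PE, the only epitope whose libraries did not choose the gene, raised Ccl5 by 0.88 (standard error 0.0923, interval 0.682 to 1.07, edgeR adjusted p 0.000144), in place 19 of 57 higher genes, 0.448% of 12720. With LE the log2 fold change was 1.97 (standard error 0.087) and with SE it was 3.34 (standard error 0.0855), in contrasts that called 9.58% and 5.01% of genes as higher. SE against LE, the contrast that chose the gene, gave 1.38 (standard error 0.0738), and SE against PE gave 2.47 (standard error 0.0796), where 1.62% and 5.25% of genes were called as higher. These 4 values are descriptions without a test. The interferon target level did not follow the same order, being 6.50 to 6.70 with LE, 6.15 to 6.30 with SE, 5.90 to 5.99 with PE and 5.998 to 6.26 with IFN-γ alone.

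Model B sets each epitope with IFN-γ against the epitope alone. With PE, IFN-γ raised Ccl5 by 2.54 (standard error 0.180, interval 2.16 to 2.91, edgeR adjusted p 2.72e-10), in place 221 of 1573 higher genes, 12.1% of 12947. Described without a test, the values were 3.67 with LE (standard error 0.171, 19.1% of genes called as higher) and 4.46 with SE (standard error 0.160, 15.1%). In ratios of mean CPM, IFN-γ multiplied Ccl5 by 5.34 over PBS, 5.87 with PE, 12.8 with LE and 22.8 with SE. The 4 comparisons share no libraries.

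The interaction of a peptide with IFN-γ asks whether the peptide changes the response to IFN-γ. For PE it was 0.09 on the log2 scale (standard error 0.288, interval -0.501 to 0.686, edgeR adjusted p 0.9447) and did not pass, in a contrast with calls for 0 of 13096 genes (1073 at an unadjusted p under 0.05). Its interval allows the IFN-γ response with PE to be from 0.501 lower to 0.686 higher than without. LE and SE gave 1.23 (standard error 0.282) and 2.04 (standard error 0.276), described without a test, where 11.3% and 5.08% of genes were called as higher.

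**Figure D2:**
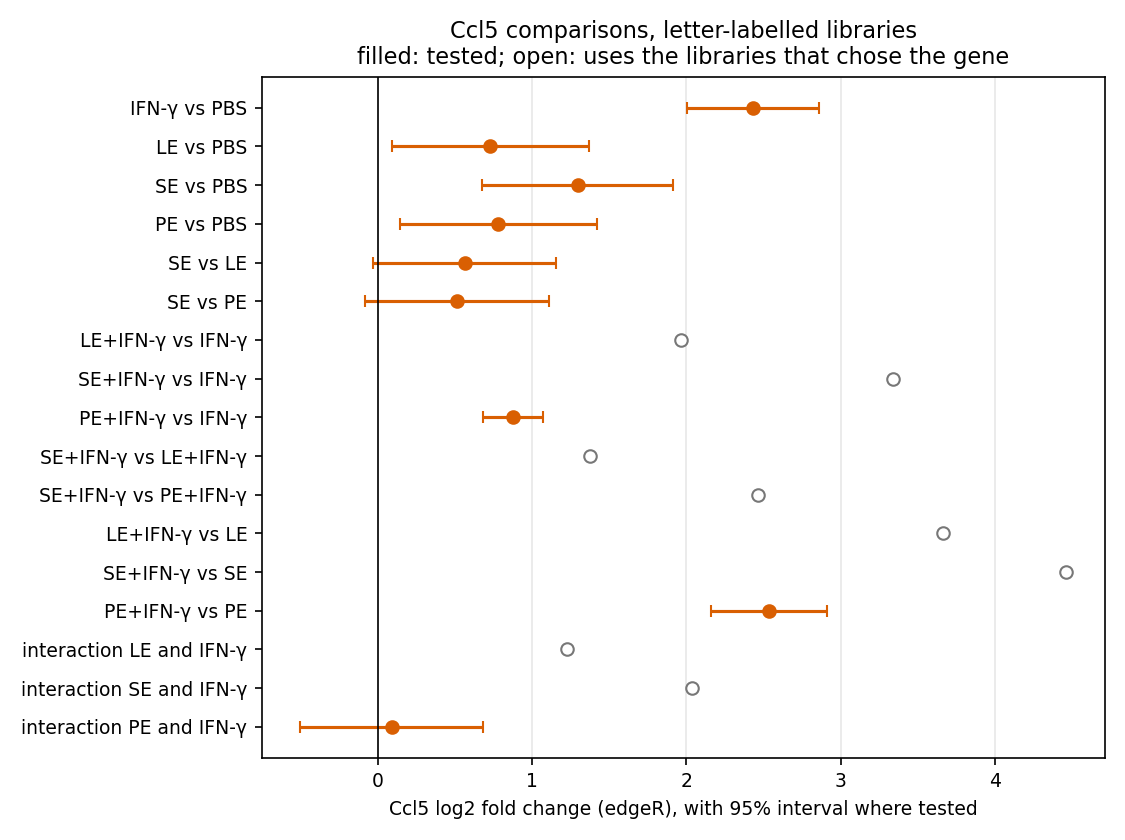
Log2 fold change of Ccl5 in each comparison of letter-labelled libraries (horizontal axis, edgeR estimate; comparisons on the vertical axis). Filled points were tested and have their 95% interval, and open points use the libraries that chose the gene and have none; the intervals of SE vs LE, SE vs PE and the PE interaction include 0.

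The HLA-labelled libraries gave another order of the labels. Ccl5 was highest in the libraries labelled LE, at 20.5, 19.3 and 26.5 CPM in replicates 4 to 6, and next in those labelled PE, at 7.28, 6.52 and 8.68 CPM. Those labelled LE+IFNy had 3.98, 4.61 and 4.46 CPM and those labelled PE+IFNy had 1.59, 1.45 and 1.30 CPM. These 12 libraries are the ones with a high IFN-γ target level.

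In the other 12, Ccl5 was 1.01, 0.929 and 2.67 CPM under the label PBS and 0.645, 0.703 and 0.974 CPM under SE. The label IFNy had 0.574, 0.217 and 0.540 CPM and SE+IFNy had 0.242, 0.283 and 0.707 CPM, from 4 to 16 counts. The group means were 22.1 ± 3.83 CPM (LE), 7.49 ± 1.10 (PE), 4.35 ± 0.325 (LE+IFNy), 1.54 ± 0.985 (PBS), 1.45 ± 0.146 (PE+IFNy), 0.774 ± 0.176 (SE), 0.444 ± 0.197 (IFNy) and 0.411 ± 0.257 (SE+IFNy). Only the neighbours PBS against PE+IFNy and IFNy against SE+IFNy overlapped. These pairs, and also SE against IFNy, differed by less than the sum of their SDs. Without replicate 6 the mean under PBS was 0.969 CPM and that under SE+IFNy 0.263 CPM. Libraries labelled PE+IFNy had less Ccl5 than 1 library labelled PBS, and their IFN-γ target level was 6.26 to 6.34 against 2.52 to 2.70.

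**Figure D3:**
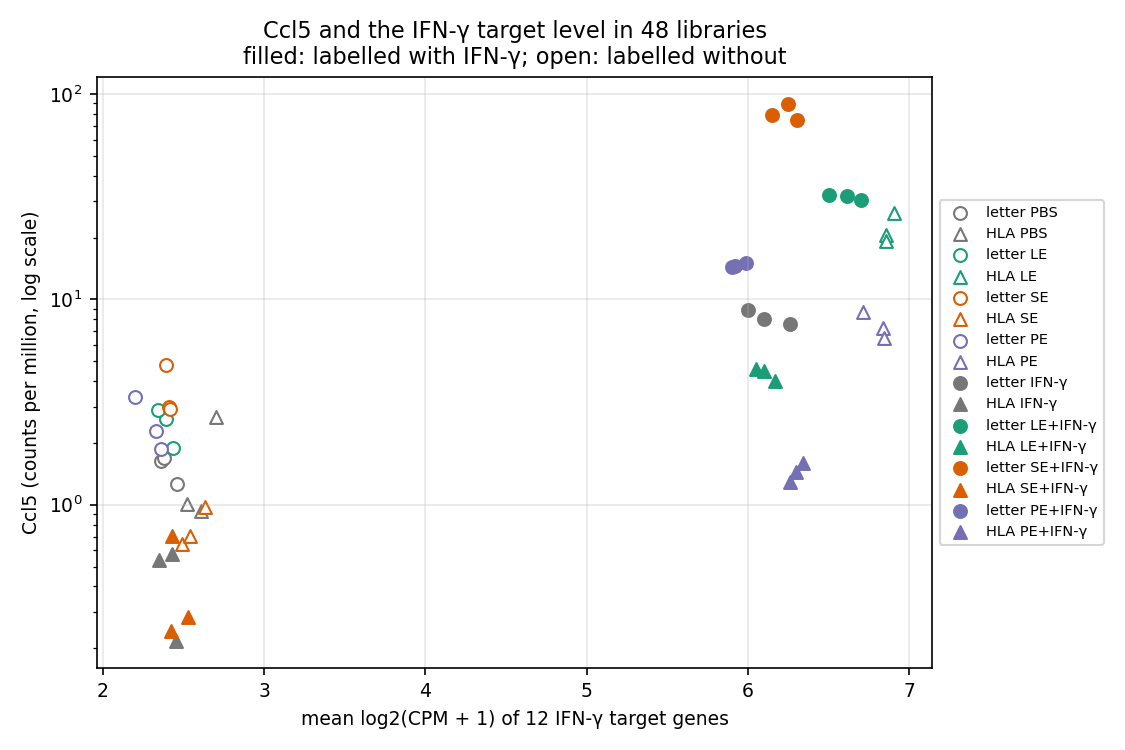
Ccl5 in CPM (vertical, log axis) against the IFN-γ target level, in log2(CPM + 1) over 12 genes (horizontal), in all 48 libraries; circles are letter-labelled, triangles HLA-labelled, filled where the label includes IFN-γ. The target level splits the libraries into a low set (2.20 to 2.70) and a high set (5.90 to 6.91), filled and open triangles occur in both sets, and within the high set Ccl5 runs from 1.30 to 89.7 CPM.

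Tests between the HLA-labelled groups took the labels as given. Libraries labelled LE exceeded those labelled PBS by 3.92 (standard error 0.281, edgeR adjusted p 3.121e-08), and those labelled PE exceeded PBS by 2.29 (standard error 0.288, adjusted p 1.091e-05), where 28.6% and 25.5% of all genes were called in either direction. Both set libraries with a high against libraries with a low IFN-γ target level. IFNy against PBS gave -1.89 (standard error 0.535, adjusted p 0.3386) and SE against PBS gave -1.04 (standard error 0.382, adjusted p 0.6406), which did not pass. Over all genes 0 were called in each of these 2 contrasts, with 1447 and 1046 at an unadjusted p under 0.05.

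By the labels as given, the difference that chose the gene was opposite here. Libraries labelled SE+IFNy differed from those labelled LE+IFNy by -3.24 on the log2 scale (standard error 0.364, edgeR adjusted p 1.719e-06, 15.8% of genes called), and from those labelled PE+IFNy by -1.67 (standard error 0.393, adjusted p 0.002936, 14.5%). Without replicate 6 these became -3.95 (adjusted p 3.164e-05) and -2.46 (adjusted p 0.003947). By position in the table these values run the other way. The HLA-labelled columns beside the letter-labelled SE+IFNy columns (labelled LE) held 19.3 to 26.5 CPM. Those beside LE+IFNy (labelled PE) held 6.52 to 8.68 CPM. Beside columns without IFN-γ the letter-labelled order was not kept, and whether position or label is right was not tested. Without IFN-γ in the label, SE differed from LE by -4.96 (standard error 0.320, adjusted p 9.392e-09, 28.7%) and from PE by -3.33 (standard error 0.333, adjusted p 1.273e-06, 24.6%). The label SE+IFNy gave 0.11 against IFNy (standard error 0.463, adjusted p 0.975, 0.0709%) and -0.74 against SE (standard error 0.351, adjusted p 0.5853, 0.145%), which did not pass. The groups labelled SE and SE+IFNy both had low target levels, 2.42 to 2.64, as did IFNy, at 2.35 to 2.45. SE+IFNy against IFNy or SE thus compared low with low target levels. The labels LE, PE, LE+IFNy and PE+IFNy had high levels. In contrasts with these, the part of the IFN-γ state cannot be told apart from that of the peptide label.

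Against the libraries labelled IFNy, Ccl5 was higher by 3.35 with LE+IFNy (standard error 0.355, edgeR adjusted p 9.559e-07, 13.7% of genes called) and by 1.78 with PE+IFNy (standard error 0.381, adjusted p 0.001546, 13.4%). The second of these calls was lost without replicate 5 (1.35, adjusted p 0.05104), and both set libraries with a high against libraries with a low IFN-γ target level. The labels of Model B gave lower values, at -2.47 for LE+IFNy against LE (standard error 0.170, adjusted p 4.336e-10, 17.8%) and -2.42 for PE+IFNy against PE (standard error 0.201, adjusted p 1.223e-08, 14.7%). In both, the compared groups had high target levels.

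Ccl5 was set beside 33 genes of its pathway, listed with earlier results of these data known. Of the 10 receptors and binding partners, Ccr1, a main receptor for CCL5 on myeloid cells, was read at 6.01 to 11.9 CPM in the letter-labelled libraries. Ccr3 stayed at or below 0.127 CPM, and Ackr1, a decoy receptor gene, had 0 counts. Ackr2, Gpr75 and Dpp4, whose product trims CCL5, had at most 3 counts in a library. Ccr1 changed by 0.21 with LE, 0.31 with SE and -0.40 with PE in Model A, none past the call rule.

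Sdc1, the gene of the heparan sulfate carrier syndecan-1, was lower with IFN-γ alone than with PBS, at -1.12 (standard error 0.103, edgeR adjusted p 7.393e-06) and was higher than with IFN-γ alone by 2.11 with LE (standard error 0.110, adjusted p 1.328e-10) and by 1.77 with SE (standard error 0.111, adjusted p 3.044e-09). Cd44, the gene of the hyaluronan receptor, rose by 0.87 with LE (standard error 0.0762) and by 0.63 with SE (standard error 0.0761) in Model A. These 2 were the receptor and partner genes called in either contrast, of 5 tested, where 9.58% of all genes were called as higher with LE and 5.01% with SE.

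The other CC chemokine genes of the list rose with both LE and SE in Model A, 6 of the 8 tested in each, where 9.58% and 5.01% of all genes were called as higher. Ccl3, which encodes the CCR1 ligand MIP-1α, rose by 1.76 with LE (standard error 0.0742) and by 1.34 with SE (standard error 0.0734). For Ccl4, the gene of the related MIP-1β, the values were 1.06 and 0.86. Ccl9, the gene of a CCR1 ligand and the neighbour of Ccl5 on the chromosome, rose by 1.29 and 1.13. Ccl6, Ccl7 and Ccl12 were also called, at 0.92, 1.16 and 0.85 with LE and at 0.95, 0.89 and 1.00 with SE. Ccl2, the gene of the monocyte attractant MCP-1, changed by 0.53 and 0.36 and did not pass the fold limit.

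SE was also set against LE for the listed chemokines, both with IFN-γ. In that comparison 0 of the 8 tested were called, their median was -0.17 on the log2 scale beside 0.005204 over all genes, and Ccl3 was lower with SE, at -0.42 (standard error 0.0719, edgeR adjusted p 0.000331), short of the fold limit. Ccl5 itself, which was chosen on this contrast, was at 1.38. Over all 33 listed genes 26 were tested and 0 called by edgeR or by DESeq2, 17 had an unadjusted p under 0.05, and 1.62% of all genes were called as higher and 3.31% as lower. For SE against PE, 11 of the 26 were higher and 1 lower, where 5.25% and 2.34% of all genes were called.

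With PE in Model A, 0 of the 26 tested genes were called by edgeR or DESeq2 and 9 had an unadjusted p under 0.05, where 0.448% of all genes were called as higher. The closest of the chemokines were Ccl4 at 0.57 and Ccl3 at 0.45 (standard error 0.0726, edgeR adjusted p 0.00391). Whether Ccl5 and these genes differ in their response was not tested.

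IFN-γ alone raised 7 of the 8 chemokine genes tested against PBS (9.79% of all genes were higher and 8.28% lower) and lowered Ccl9, at -0.76 (standard error 0.0911, edgeR adjusted p 5.536e-05). The rises were 0.64 for Ccl3, 0.85 for Ccl4, 1.77 for Ccl2, 2.75 for Ccl6 and 4.23 for Ccl7, and Ccl8 and Ccl12 rose from few or no reads. Ccl5, at 2.43, lay within this range. With SE alone Ccl4 was called, at 0.88 (standard error 0.115, edgeR adjusted p 0.001623), as was Ccl5. With PE alone Ccl4 was called, at 0.69 (standard error 0.115, edgeR adjusted p 0.005437), and Ccl5 was not. The other listed chemokine genes were not called with a peptide alone. For LE alone 0 of 23 listed genes were called by edgeR or DESeq2, and 6 had an unadjusted p under 0.05, where 0.0242% of all genes were called as higher.

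**Figure D4:**
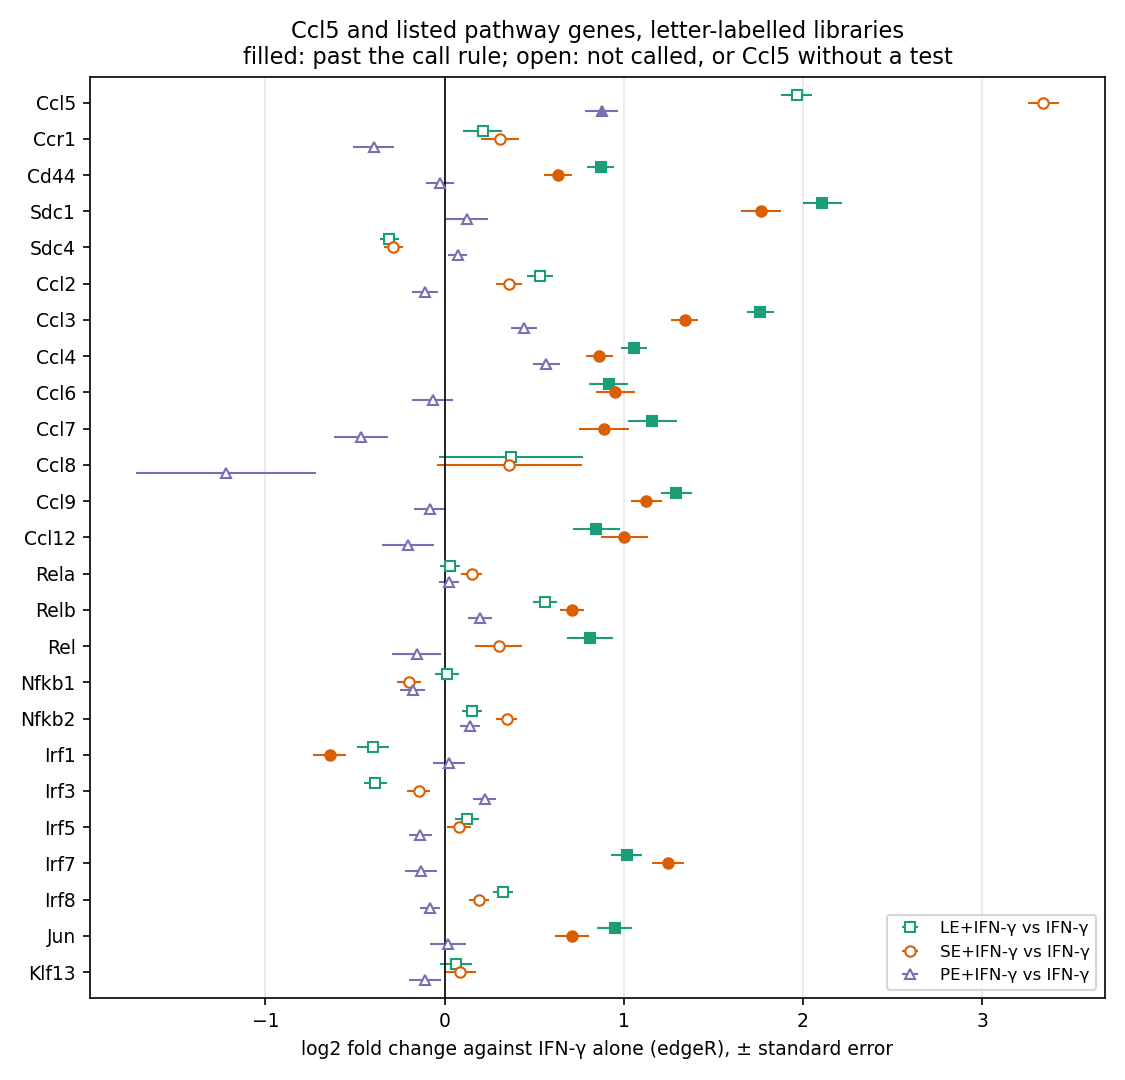
Log2 fold change against IFN-γ alone (horizontal axis, edgeR estimate ± standard error) of Ccl5 and 24 of the listed genes that could be tested (vertical axis), with LE (squares), SE (circles) and PE (triangles) in the presence of IFN-γ, letter-labelled libraries; filled symbols passed the call rule, and Ccl5 with LE and SE has no test. Ccl5 lies at 1.97 with LE, 3.34 with SE and 0.88 with PE, and 6 other chemokine genes have filled symbols right of 0 with both LE and SE.

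All 13 transcriptional regulators were tested, which brought the listed genes called in Model A to 11 higher of 26 with LE (9.58% of all genes) and to 11 higher and 1 lower with SE (5.01% and 2.38%). In Model A, Irf7, an inducer of antiviral interferon genes, rose with LE, at 1.02 (standard error 0.0879, edgeR adjusted p 4.856e-08), and with SE, at 1.25 (standard error 0.0882, adjusted p 1.052e-08). Jun, the gene of an AP-1 subunit, rose by 0.95 and 0.71. Rel, which encodes the NF-κB subunit c-Rel, was called with LE, at 0.81, and was at 0.30 with SE, and Relb was called with SE, at 0.71, and was at 0.56 with LE. Neither was called between SE and LE. Irf1, an IFN-γ target that is also among the 12 genes of the target level, was the regulator that was lower with SE, at -0.64 (standard error 0.0910, adjusted p 3.214e-05, where 2.38% of all genes were lower), and was at -0.40 with LE.

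IFN-γ alone raised Irf1 by 2.84, Irf7 by 0.91 and Irf8 by 0.76, and lowered Jun, at -1.50. With SE alone Irf7 rose by 0.74 (standard error 0.102, edgeR adjusted p 0.002266) and Rel was lower, at -0.64 (standard error 0.141, adjusted p 0.01343, with 1.25% of all genes lower). Irf7 was also the listed gene called between SE and PE without IFN-γ, at 0.65 (standard error 0.102, adjusted p 0.04483). The p65 gene Rela, Nfkb1, Nfkb2, Irf3, Irf5 and Klf13, a late activator of Ccl5 in T cells, were not called in Model A, nor with IFN-γ or a peptide alone.

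Among HLA-labelled libraries, the listed chemokine genes that were called between labels had the direction of Ccl5. Between libraries labelled LE and PBS 8 of 8 tested were higher, and 8 of 8 for PE, where 28.6% and 25.5% of all genes were called in either direction and the IFN-γ target level was high under LE and PE and low under PBS. Between SE+IFNy and LE+IFNy 6 of 7 were lower and 0 higher, where 15.8% of all genes were called in either direction. Here the target level was low under SE+IFNy and high under LE+IFNy. For IFNy against PBS 0 of 6 were called by edgeR, 3 had an unadjusted p under 0.05 and DESeq2 called 1.

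Likeness to Ccl5 was measured as Pearson's r of log2(CPM + 1) over the 24 letter-labelled libraries, for 9590 genes with a mean of at least 5 CPM, whose median r was -0.0103. The libraries share the 8 treatments, so r takes in the differences between group means, and it is given as a description. Among the 8 genes most like Ccl5 were Oasl1 (0.977), Hmox1 (0.976), Rhov (0.975), Zfand3 (0.974), Glrx (0.971), Itgb2 (0.968) and Plekhn1 (0.965). Oasl1 is an interferon-induced gene, Hmox1 encodes the haem-degrading enzyme haem oxygenase-1, Glrx the thiol reductant glutaredoxin and Itgb2 the common beta chain of the leukocyte integrins.

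These 7 were picked by their r with Ccl5, itself chosen for its level with SE and IFN-γ. The choice therefore favours a shared peak there, which is given as a description. The 7 genes were highest with SE and IFN-γ, at log2 ratios to PBS of 1.26 to 2.33, and lower with LE and IFN-γ, at 1.09 to 2.23. The same ratios for Ccl5 were 5.73 and 4.37. Hmox1 had 2187 ± 92.3 CPM with SE and IFN-γ and 1485 ± 68.4 CPM with LE and IFN-γ (SD, n = 3). Itgb2, at 972 ± 52.3 and 950 ± 29.4 CPM, and Rhov, at 52.7 ± 2.83 and 49.2 ± 3.20 CPM, differed by less than the sum of their SDs. The others of the 7 differed by more than that. Over the 12 letter-labelled libraries with IFN-γ, r was 0.915 to 0.992 for the 7, and the most alike were Prdx5 (0.994), Zfand3 (0.992) and Gpi1 (0.991), with Zfand3 and Glrx in both sets of 8. Over the HLA-labelled libraries r was 0.701 (Hmox1) to 0.937 (Glrx).

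**Figure D5:**
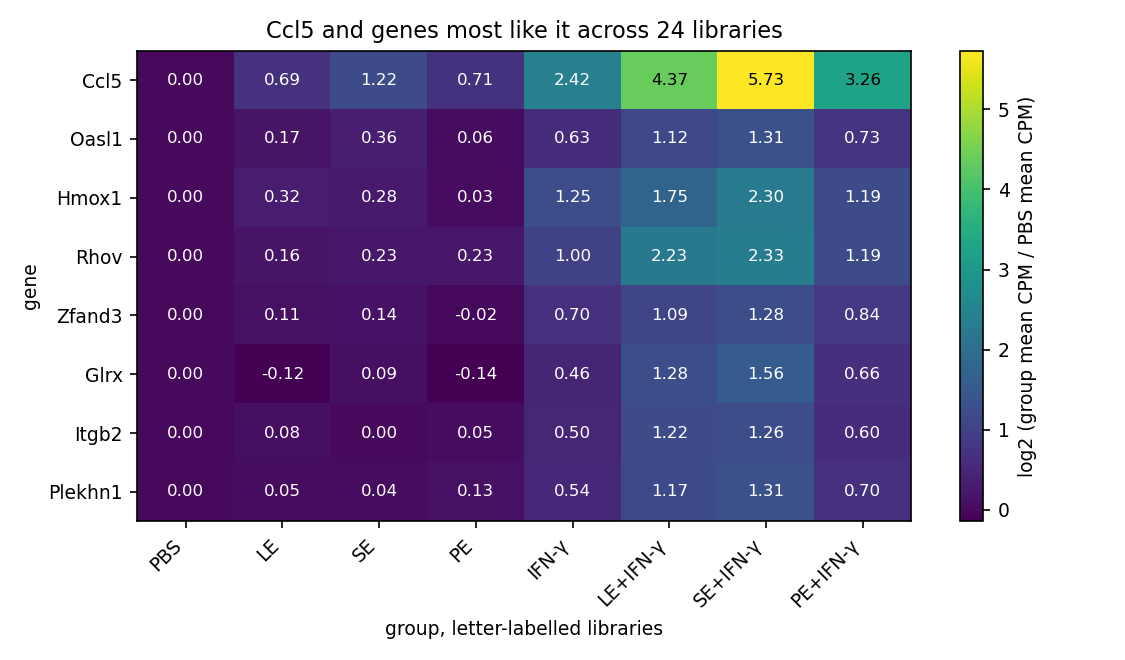
Ccl5 and 7 of the genes most like it (rows) in the 8 letter-labelled groups (columns), coloured and numbered by the log2 ratio of the group's mean CPM to the PBS mean. Every row is highest with SE and IFN-γ, which the choice of genes by likeness to Ccl5 favours, with Ccl5 at 5.73 and the others at 1.26 to 2.33.

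The cultures had the markers of their label. All 6 macrophage markers (Adgre1, Csf1r, Itgam, Cd68, Lyz2 and Ptprc) were read, at a sum of 5756 to 10760 CPM in the letter-labelled and 4194 to 9761 CPM in the HLA-labelled libraries. Of 6 markers of T and natural killer cells, which also make CCL5, Cd8a and Ncr1 had 0 counts in the letter-labelled libraries and Cd3d, Cd3e and Klrb1c had at most 2. Lck alone was above 1 CPM, at 9.94 to 29.0 CPM, and its part in the Ccl5 levels was not tested. The sum of this list was 22.3 to 27.2 CPM with SE and IFN-γ, 16.5 to 20.1 with LE and IFN-γ, 24.99 to 27.75 with PE and IFN-γ, 25.5 to 29.0 with IFN-γ alone and 10.1 to 19.6 without IFN-γ. Fibroblast and epithelial markers summed to at most 1.84 and 0.242 CPM.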

How the data were processed

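Ccl5 and the gene lists were chosen with earlier results of these data known. The authors made stranded poly(A) libraries (TruSeq), read them over 100 bases single-ended, and counted uniquely mapped reads per gene with featureCounts (Rsubread 1.5.0p3, GENCODE M12, GRCm38.p5). The aligner is not given in the sources used here. The deposited values are these raw counts, whole numbers without normalization. Counting unique reads lowers near-identical genes; Ccl5 overlaps no other gene. The authors' own fold changes (DESeq2 1.16.1, R 3.4.1) were not used.

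CPM was the count per 1000000 counts of the library. Tests used edgeR 4.0.16 in R 4.3.3 (quasi-likelihood F test, TMM, filterByExpr, Benjamini-Hochberg over all genes tested), two-sided, calling an adjusted p under 0.05 with a fold over 1.5. Letter-labelled and HLA-labelled libraries were fitted separately, 3 per group: IFN-γ and PBS; the 4 groups without IFN-γ; the 4 with it (Model A); the 6 with peptide (Model B); all 8 for interactions. The difference between series was fitted over all 48. DESeq2 1.42.0, RLE scaling, no filter, a replicate block, omitted replicates, all groups in 1 fit and both series in 1 fit were alternatives. The code was tested on simulated data. Named genes came from the 33 listed and the 8 most like Ccl5; a few of them are not reported here. The labels give no pairing by replicate number, and the main fits used none. Same-numbered libraries of different groups correlated above 0.1 in 40 of 84 letter-labelled and 41 of 84 HLA-labelled pairs (median r 0.0805 and 0.0910). Differently numbered libraries were not compared, so these values cannot tell whether the numbers pair samples. Totals include 26 date-like gene names, not named here. No sequence of Ccl5 or of the peptides was used here.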

Additional observations from a re-analysis of the deposited data

Results flagged for a closer look

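Contrasts of the same labels gave different Ccl5 changes in the letter-labelled and the HLA-labelled libraries, by an edgeR test of the difference (letter-labelled minus HLA-labelled log2 fold change, over all 48 libraries). These are the same contrast only if the HLA labels belong to their columns, which is not known. For IFN-γ against PBS the difference was 4.36 (standard error 0.442, adjusted p 1.771e-10). For LE against PBS it was -3.20 (standard error 0.373, adjusted p 2.756e-09), for SE against PBS 2.33 (standard error 0.421, adjusted p 0.000563) and for PE against PBS -1.54 (standard error 0.376, adjusted p 0.0008139). Between peptides it was 5.53 for SE against LE (standard error 0.367, adjusted p 3.943e-16) and 3.87 for SE against PE (standard error 0.379, adjusted p 5.702e-11). For PE with IFN-γ against PE it was 4.97 (standard error 0.331, adjusted p 4.559e-16). The difference did not pass for PE with IFN-γ against IFN-γ (-0.93, standard error 0.449, adjusted p 0.1312; 0.07688 by DESeq2) or for the PE interaction (0.61, standard error 0.616, adjusted p 0.5819).

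In 3 further contrasts, which use the letter-labelled libraries that chose the gene, every letter-labelled library moved one way and every HLA-labelled library the other, and the difference was not tested. The HLA-labelled log2 fold changes were -3.24 for SE+IFNy against LE+IFNy, -1.67 for SE+IFNy against PE+IFNy and -2.47 for LE+IFNy against LE, beside 1.38, 2.47 and 3.67 in the letter-labelled libraries. In these series the IFN-γ target level went with the label in 24 of 24 letter-labelled and in 12 of 24 HLA-labelled libraries, and its part in the differences was not tested. By position in the table, the HLA-labelled columns beside letter-labelled SE+IFNy columns held 19.3 to 26.5 CPM and those beside LE+IFNy 6.52 to 8.68 CPM. Those beside PE+IFNy held 3.98 to 4.61 CPM and those beside IFNy 1.30 to 1.59 CPM. These ranges had the order of the letter-labelled groups with IFN-γ. Beside columns without IFN-γ the letter-labelled order was not kept. There the values were 0.929 to 2.67 CPM beside SE and 0.217 to 0.574 CPM beside PE. They were 0.645 to 0.974 CPM beside LE and 0.242 to 0.707 CPM beside PBS. The range beside SE overlapped that beside IFNy. Whether position or label is right was not tested.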

How the results depend on the processing

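Limits: each group holds 3 libraries, Ccl5 has 30 to 99 counts per letter-labelled library without IFN-γ and as few as 4 in the HLA-labelled series, and the HLA-labelled groups rest on labels that the IFN-γ targets contradict in 12 of 24 libraries. The alternatives kept direction and side of the threshold in 63 of 77 tested values of the Ccl5 change for letter-labelled and 112 of 119 for HLA-labelled libraries, and in all 9 of the difference between series. Of 70 letter-labelled values without a test, 62 moved by less than the SD of the compared groups combined. With TMM scaling each mean level moved by less than 1 SD of its group. Leaving out 1 of 3 libraries cannot move a mean by 1 SD, so that setting was no check on the mean levels. It could also hardly move the values without a test past the combined SD. Without replicate 6 the HLA-labelled means under PBS and SE+IFNy fell from 1.54 to 0.969 and from 0.411 to 0.263 CPM. Interactions of LE and SE were added to the alternatives after seeing the data. The cause of the changes below was not tested.

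Fitting both series together, with the series as a term, changed most letter-labelled results. The log2 changes became 0.66 for IFN-γ against PBS (adjusted p 0.6262), 2.80 for LE against PBS (0.01335), 0.73 for SE against PBS (0.8957), -2.07 for SE against LE (0.05507), -0.87 for SE against PE (0.3655), 1.18 for PE with IFN-γ against IFN-γ (0.1891) and -0.45 for PE with IFN-γ against PE (0.8227). Without a test they became 2.63 for LE and 2.78 for SE in Model A, 0.142 for SE against LE and 1.60 for SE against PE with IFN-γ, and -0.82 for LE and 3.74 for SE in Model B. The interactions became -1.52 (LE), 3.00 (SE) and -1.13 (PE, adjusted p 0.7803). Against PBS, listed genes called became 0 (IFN-γ), 14 (LE), 0 (SE) and 9 (PE). They became 0 for SE in Model A and 5 for SE against LE with IFN-γ. The share of all genes called in this joint fit is not given here, so these counts are no result about the listed genes.

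PE against PBS passed without the filter (0.78, adjusted p 0.03343) and with all 8 groups in 1 fit (0.78, 0.01739). The replicate block, where the number marks no known pairing, gave it 0.77 (0.01861) and changed no other Ccl5 call. In the HLA-labelled series IFNy against PBS passed without the filter (-1.89, 0.000128) and with all 8 groups (-1.92, 0.02794), and SE against PBS without the filter (-1.05, 0.003209).

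Leaving out 1 replicate number at a time gave 1.09 to 1.49 for SE against PBS and -0.107 to 0.339 for the PE interaction (letter-labelled), and in the HLA-labelled series -0.478 to 0.689 for SE+IFNy against IFNy (-0.129 without replicate 5), 1.35 to 2.04 for PE+IFNy against IFNy, -3.95 (without replicate 6) to -3.02 for SE+IFNy against LE+IFNy, -2.46 (without replicate 6) to -1.35 for SE+IFNy against PE+IFNy and -0.851 to 0.0352 for the PE interaction. Listed genes called ran from 0 to 4 for SE and 0 to 2 for PE against PBS, 0 to 2 for PE in Model A and 0 to 1 for SE against LE with IFN-γ. The shares of all genes called in these fits are not given here, so the counts cannot be set against them.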

Other observations

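The deposited table orders its columns in 8 blocks of 6, each with 3 letter-labelled and 3 HLA-labelled columns. In all 24 of 24 HLA-labelled columns the letter-labelled columns of the block carry another label. Ccl5 in the HLA-labelled columns was 19.3 to 26.5 CPM (labelled LE) in the block of the letter-labelled SE+IFNy libraries, 6.52 to 8.68 (labelled PE) in that of LE+IFNy, 3.98 to 4.61 (labelled LE+IFNy) in that of PE+IFNy and 1.30 to 1.59 (labelled PE+IFNy) in that of IFNy. In the blocks without IFN-γ it was 0.242 to 0.707 (labelled SE+IFNy, block of PBS), 0.645 to 0.974 (labelled SE, block of LE), 0.929 to 2.67 (labelled PBS, block of SE) and 0.217 to 0.574 CPM (labelled IFNy, block of PE). The groups were kept as the labels give them.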
